A study of Mus musculus with 2116 samples.

Results

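The integrin chains examined here are the products of 9 genes: the beta chains Itgb1, Itgb2, Itgb3 and Itgb7 and the alpha chains Itga4, Itga6, Itgal, Itgae and Itgav. They were taken by gene name from a count table of 23725 genes, which lists 27 integrin chain genes in all, and all 9 had at least 20 unique molecular identifiers (UMIs, tags that count captured mRNA molecules). The table holds 2116 single spleen cells, encapsulated with the inDrops droplet method, from male B6 Foxp3-Ires-Gfp mice aged 8 months, a strain in which green fluorescent protein (GFP) reports the regulatory T cell factor Foxp3. One library, labelled TR, held 816 cells and is called Treg here (regulatory T cells), and the other, labelled TC, held 1300 cells and is called Tconv (conventional CD4 T cells). Both were sorted as live TCRb+ CD4+ cells. The sort description names a GFP+ gate while speaking of FoxP3+ and FoxP3- cells, and neither the number of mice nor any treatment is given.

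Each group was a single library, so no difference below has a replicate check and none was tested. Levels are UMIs of a gene per 1000000 UMIs of the library (CPM), with exact Poisson 95% intervals. Ratios carry exact conditional 95% intervals. All intervals cover counting error only, and sequencing without replicate libraries gives no measure of variation between animals.

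Integrins are cell surface receptors made of one alpha and one beta chain, and the pairing decides which ligand is bound. On T cells, Itgal with Itgb2 forms LFA-1, which binds ICAMs on other cells. Itga4 with Itgb1 forms VLA-4, which binds VCAM-1 and fibronectin, and Itga4 with Itgb7 forms the gut homing receptor for MAdCAM-1. Itgae, also known as CD103, pairs with Itgb7 and binds E-cadherin on epithelium. Itga6 pairs with Itgb1 to bind laminin, while Itgav pairs with several beta chains, Itgb1 and Itgb3 among them.

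The RefSeq promoter windows of Itgb1, Itga4 and Itgb7 are shown because these genes encode the chains of VLA-4 and of the gut homing receptor, and only 1 of the 3 differed by more than 2-fold between the libraries. Each window takes the 250 bases before the start and the 50 from the start base on, in GRCm38.p6, 5′ to 3′ on the gene's strand. The Itgb1 window is chr8:128685404-128685703 on the plus strand, the Itga4 window is chr2:79255176-79255475 on the plus strand, and the Itgb7 window is chr15:102231886-102232185 on the minus strand. Capitals mark matches to short motifs on either strand.
Itgb1: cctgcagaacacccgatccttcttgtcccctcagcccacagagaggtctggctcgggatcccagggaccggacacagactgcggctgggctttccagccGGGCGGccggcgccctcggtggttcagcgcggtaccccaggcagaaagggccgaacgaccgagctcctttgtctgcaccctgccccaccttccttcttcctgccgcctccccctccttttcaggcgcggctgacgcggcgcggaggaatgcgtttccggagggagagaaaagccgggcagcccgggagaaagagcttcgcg
Itga4: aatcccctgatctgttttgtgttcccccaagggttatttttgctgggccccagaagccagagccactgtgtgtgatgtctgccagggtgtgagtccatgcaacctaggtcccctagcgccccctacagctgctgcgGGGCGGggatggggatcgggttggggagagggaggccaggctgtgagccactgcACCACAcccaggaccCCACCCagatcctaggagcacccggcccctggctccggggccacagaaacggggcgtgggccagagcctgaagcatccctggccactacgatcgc
Itgb7: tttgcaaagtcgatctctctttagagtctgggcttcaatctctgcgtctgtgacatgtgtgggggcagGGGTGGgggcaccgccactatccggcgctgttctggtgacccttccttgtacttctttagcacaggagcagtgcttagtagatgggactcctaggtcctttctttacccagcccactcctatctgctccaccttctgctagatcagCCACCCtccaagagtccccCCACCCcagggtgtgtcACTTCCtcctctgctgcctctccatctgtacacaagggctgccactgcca
The GC box bound by Sp and Klf factors was searched as GGGCGG. Another box of Klf factors was searched as CCACCC. The core of Ets factor sites was searched as GGAAGT and that of Runx sites, known from many T cell genes, as TGTGGT. Forkhead sites, the kind that Foxp3 and Foxo factors bind, were searched as TGTTTAC. The TATA box was searched as TATAAA. No match in the windows shown shared a base with another. Positions are those of the first base of a match, with the start base at 0. Itgb1 held 1 GGGCGG match, at position -151. Itga4 held GGGCGG at position -114, the reverse complement of TGTGGT at -60 and CCACCC at -45. Itgb7 held CCACCC at -36 and -17, its reverse complement at -182, and that of GGAAGT at position 0, but no GC box. The forkhead and TATA letters were in none of the 3 windows. GGGCGG stood in 35.7% of 32851 promoter windows of the same length, CCACCC in 31.5%, GGAAGT in 23.8%, TGTGGT in 16.8%, TATAAA in 13.6% and TGTTTAC in 3.65%. GC content was 67.3% for Itgb1, 64.3% for Itga4 and 56.3% for Itgb7, against a median of 52.7% over all windows. A match is a description of letters and not a binding site.

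The Treg library held 1468203 UMIs with a median of 1688.5 per cell, and the Tconv library 2002752 with a median of 1510.5. Foxp3, the defining factor of regulatory T cells, stood at 380.1 CPM in Treg and 2.996 in Tconv. Each of the 6 T cell genes measured, Lck, Cd4, Cd3d and Cd3g among them, differed by less than 2-fold between the libraries. Markers of other cell types were not even: 55 Treg cells (6.74%, 95% interval 5.12 to 8.68%) and 30 Tconv cells (2.31%, 1.56 to 3.28%) held 3 or more UMIs of one such list. The B cell list of 8 genes in the table summed to 683.8 CPM in Treg and 179.3 in Tconv, the 11-gene myeloid list to 549 and 285.1, and the erythroid list of 4 to 151.2 and 0, with Alas2 at 0 in both. The plasma cell list summed to 92.6 CPM in Treg and 230.7 in Tconv. Jchain, seen in 4 Tconv cells and no Treg cell, gave 185.7 CPM of the Tconv sum, nearly all of it from 1 cell. Xbp1 and Mzb1 of that list were higher in Treg, at 75.6 and 16.3 CPM against 34.5 and 7.99 in Tconv. Sdc1 had 1 UMI in Treg and 5 in Tconv. The CD8 or NK list was lower in Treg, with 64.7 and 79.9 CPM. C1qa, C1qb and Cd5l, genes of tissue macrophages, had 48, 28 and 29 UMIs in Treg and none in Tconv. For Cd5l all of these UMIs were in 1 Treg cell, and for C1qa and C1qb most were. Most of the C1qc UMIs, 53 in Treg and 1 in Tconv, were also in 1 Treg cell. Adgre1 of the same list had 1 UMI in Treg and 2 in Tconv. There were 12 cell barcodes found in both libraries.

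Integrin messages made up 1780 CPM in Treg and 1317 CPM in Tconv (2614 and 2638 UMIs). Itgb1 and Itgae were more than 2-fold higher in Treg, Itgb3 was more than 2-fold lower, and the other 6 chains lay within 2-fold. Of the 8988 genes that reached 20 UMIs, 8.61% were 2-fold or more higher in Treg and 3.6% were as much lower, so 2 and 1 of 9 stand beside those shares, and 9 genes are too few to read a difference from them. The median log2 ratio of the 9 chains was 0.28, against 0.14 over all genes measured. Itgb1 was 19.9% of the integrin UMIs in Treg and 8.34% in Tconv, while Itgb2 was 33.1% and 37.7%.

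**Figure D1:**
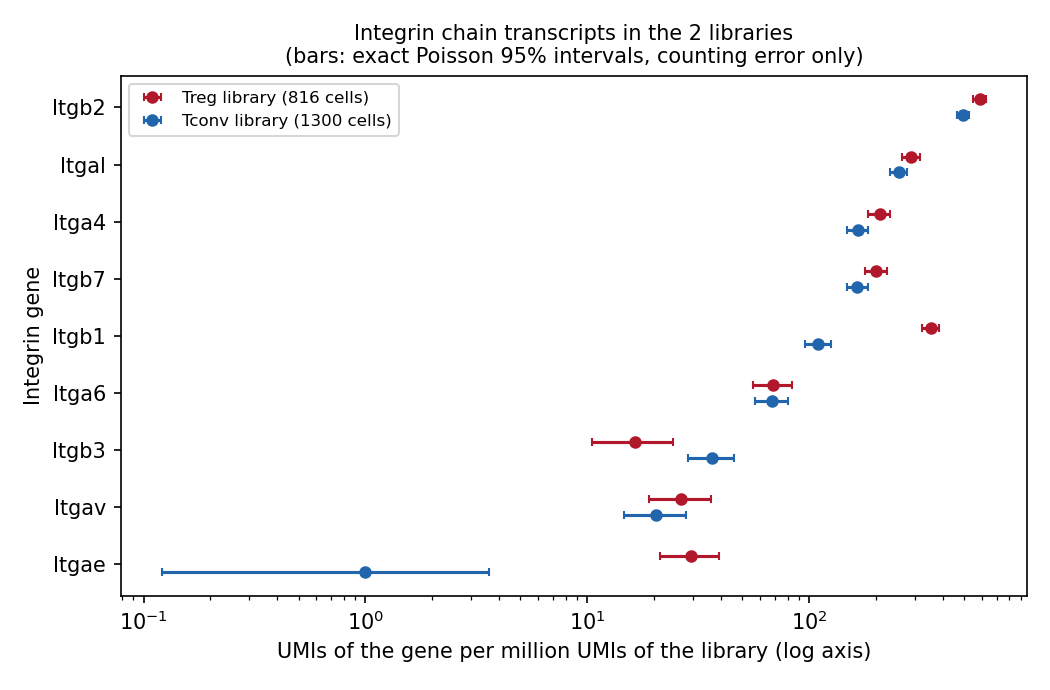
Level of each integrin gene, in CPM on a log axis, in the Treg (red) and Tconv (blue) libraries, with exact Poisson 95% intervals. The intervals of Itgb1, Itgb2, Itgb3 and Itgae do not overlap between the libraries, with Itgb1 at 354.2 and 109.8 CPM.

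Among the beta chains, Itgb1 had the widest gap with many UMIs behind it. Itgb1, the shared beta chain of the VLA receptors (mm10 chromosome 8, 128685654 to 128733200), had 520 UMIs in 15.3% of the 816 Treg cells and 220 UMIs in 7.0% of the 1300 Tconv cells. Its level was 354.2 CPM (324.4 to 385.97) in Treg and 109.8 CPM (95.8 to 125.4) in Tconv, a ratio of 3.22-fold (2.75 to 3.79), or 1.69 on the log2 scale (1.46 to 1.92). The gap was as large without the cells that held markers of other types, at 1.77 on the log2 scale. The share of cells with an Itgb1 UMI differed too. After every cell was thinned at random to 1000 UMIs, which left out 9.56% of the Treg and 14.8% of the Tconv cells as too shallow, the share was 12.7% in Treg (10.4 to 15.4%) and 5.51% in Tconv (4.24 to 7.02%).

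Itgb2, the beta chain of LFA-1 (chromosome 10, 77530252 to 77565708), averaged 1.06 UMIs per Treg cell and 0.765 per Tconv cell, found in 30.9% and 30.3% of cells. Its level was 588.5 CPM in Treg and 496.3 CPM in Tconv, a log2 ratio of 0.25 (0.11 to 0.38). With library totals counted without ribosomal protein genes, which took 26.2% of Treg and 32.8% of Tconv UMIs, the log2 ratio was 0.11 (-0.02 to 0.24). The share of thinned cells with an Itgb2 UMI was 25.3% in Treg and 24.8% in Tconv, a ratio of 1.02 (0.869 to 1.199).

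Itgb7, the beta chain of gut homing and epithelial integrins (chromosome 15, 102215995 to 102231944, minus strand), averaged 0.360 UMIs per Treg cell and 0.254 per Tconv cell, found in 26.3% and 20.8% of cells. The level was 200.2 CPM in Treg and 164.8 CPM in Tconv, a log2 ratio of 0.28 (0.05 to 0.51). This small difference was not seen in the main draw of cells thinned to 1000 UMIs. There the log2 ratio was -0.03 (-0.37 to 0.30) and the shares of cells were 15.2% and 14.9%. The ratio of shares was 1.02 (0.817 to 1.27) there and 1.15 (0.928 to 1.43) in a second random draw. It was 1.33 (0.994 to 1.78) in cells thinned to 500 UMIs and 1.34 (1.09 to 1.65) at 1500. Treg cells with an Itgb7 UMI were deeper than those without, with a median of 1886.5 against 1744 UMIs among the cells kept for thinning, while in Tconv the medians were 1582 and 1597.

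Itgb3, the beta chain of the vitronectin receptor and also of platelet integrin (chromosome 11, 104608000 to 104670476), ran the other way. It had 24 UMIs in 20 Treg cells and 73 UMIs in 67 Tconv cells. The level was 16.3 CPM (10.5 to 24.3) in Treg and 36.4 (28.6 to 45.8) in Tconv, a log2 ratio of -1.16 (-1.89 to -0.47). None of these 87 cells held a UMI of the 6-gene platelet list. That list summed to 8.17 CPM in Treg and 1.498 CPM in Tconv, with Gp1bb, Treml1 and Clec1b at 0. A UMI of the T cell list was held by 65 of the 67 Tconv cells and 17 of the 20 Treg cells. Of the 91 Tconv cells with Itgb1, 87 held one too. A UMI of the CD8 or NK list was held by 15 of the 67 Tconv cells and 1 of the 20 Treg cells. In Tconv this was 11 of 91 cells for Itgb1 and 4 of 20 for Itgav, and the difference was not tested. Nearly all cells with Itgb3 carried a single molecule of it, 17 of 20 in Treg and 62 of 67 in Tconv.

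Of the alpha chains, Itgae alone differed by more than 2-fold. Itgae (chromosome 11, 73090583 to 73147446) had 43 UMIs in 27 Treg cells and 2 UMIs in 2 Tconv cells. The level was 29.3 CPM (21.2 to 39.5) in Treg and 0.999 (0.121 to 3.61) in Tconv, which is under the limit of 1.498 CPM that 3 counts set there. The log2 ratio was 4.87, and with only 2 Tconv UMIs its interval ran from 2.93 to 7.97. Of the 27 Treg cells, 26 held a UMI of the 6-gene Treg list, 26 a T cell UMI, 10 a Foxp3 UMI and 7 a UMI of the CD8 or NK list, and none was among the cells with markers of other types. The Treg cells with Itgae were deep, with a median of 2316 UMIs. An intron of Itgae holds Haspin on the opposite strand (Gsg2 in the table), with 6 UMIs in Treg and none in Tconv. Whether the counting used strand is not given in the sources used here.

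Itga4, the alpha chain of VLA-4 and of the gut homing receptor (chromosome 2, 79255426 to 79333123), averaged 0.374 UMIs per Treg cell and 0.256 per Tconv cell, found in 16.9% and 16.4% of cells. Its level was 207.7 CPM in Treg and 166.3 CPM in Tconv, a log2 ratio of 0.32 (0.09 to 0.55). Itgal, the alpha chain of LFA-1 (chromosome 7, 127296260 to 127335138), averaged 0.520 and 0.392 UMIs per cell, or 288.8 and 254.2 CPM, and was found in 22.7% and 19.4% of cells. The log2 ratio of Itgal was 0.18 (-0.01 to 0.37), so its level was not distinguishable between the libraries at this depth. The interval of Itga4 lay above 0 but held the median of all genes, 0.14.

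Itga6, the alpha chain of laminin receptors (chromosome 2, 71745616 to 71858416), averaged 0.124 UMIs per Treg cell and 0.105 per Tconv cell, or 68.8 and 67.9 CPM. Its log2 ratio was 0.02 with an interval of -0.37 to 0.40, which leaves out a 2-fold difference either way, and its sign turned to -0.12 with totals that leave out ribosomal protein genes. Itgav (chromosome 2, 83724397 to 83806916) had 39 UMIs in 15 Treg cells and 41 UMIs in 20 Tconv cells, a log2 ratio of 0.38 (-0.29 to 1.04). A single cell held 23.1% of the Itgav UMIs in Treg and another 14.6% in Tconv. The level of Itgav thus rested on few cells, and its interval, which takes UMIs as independent, is too narrow.

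**Figure D2:**
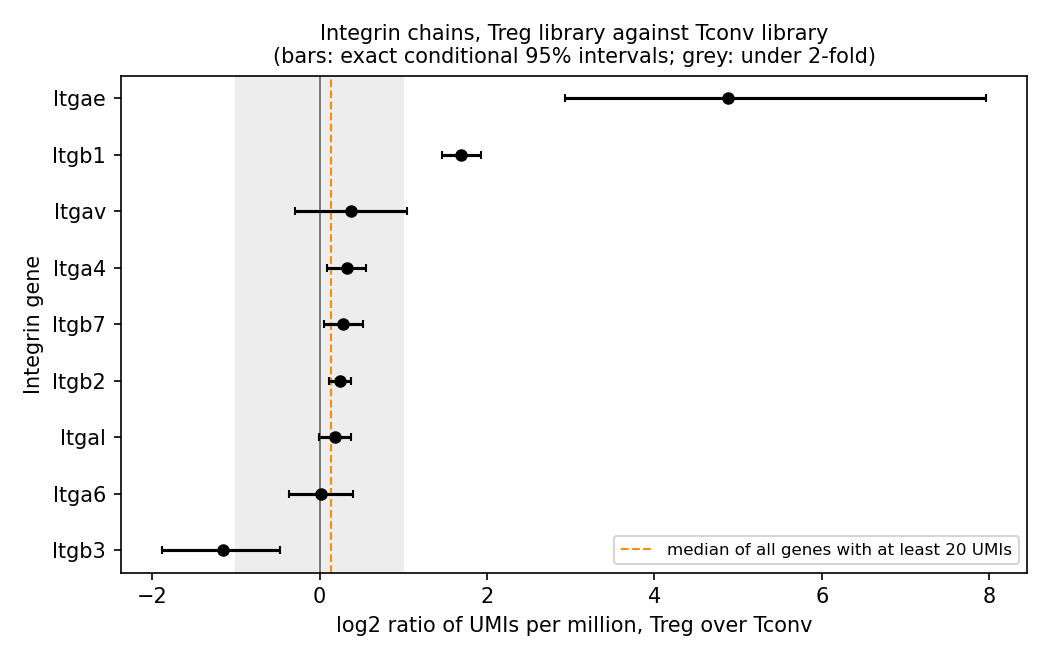
Log2 ratio of CPM, Treg over Tconv, for the 9 integrin genes with exact conditional 95% intervals; grey marks less than 2-fold and the dashed line the median of all genes. Itgae (4.87), Itgb1 (1.69) and Itgb3 (-1.16) lie outside the grey band.

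Among the thinned shares of the alpha chains, Itgae was the one whose intervals did not overlap between the libraries. How many of all genes have shares with intervals apart was not counted. Itga4 had a Treg to Tconv ratio of shares of 1.13 (0.886 to 1.44) and Itgal of 1.10 (0.890 to 1.37), with Treg shares of 13.6% and 16.5%. Itga6 was seen in 5.15% of Treg and 5.51% of Tconv cells. Itgav was seen in 1.63% and 0.903%, a ratio of 1.802 (0.782 to 4.15) that few cells leave wide. Itgae was seen in 1.90% (1.04 to 3.16%) and 0.181% (0.022 to 0.651%). A few genes that T cells should lack were counted in the same thinned cells for scale. In Treg, hemoglobin Hba-a2 had a UMI in 0.678% of cells, the lysozyme gene Lyz1 of myeloid cells in 0.542% and Jchain of plasma cells in none. In Tconv these were none, 0.451% and 0.0903%. The Treg share of Itgae lies above those of these genes, while the Tconv share rests on 2 cells and lies within their range. Some other listed markers of other cell types were seen more often than Itgae. In unthinned Treg cells, Cst3 had a UMI in 14.1%, Cd8b1 in 7.11%, Cd74 in 5.88% and Irf8 in 4.29%, against 3.31% for Itgae. H2-Eb1 and Cd79a were rarer, at 2.70% and 1.96%.

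The remaining 18 integrin chains had few UMIs or none. Itga1, Itga2, Itga8, Itgb2l and Itgb4 had no UMI, 11 had 1 to 19, and Itga7 and Itgam had 20 or more. Itgam, the alpha chain of the myeloid receptor Mac-1, had 23 UMIs in Tconv and 4 in Treg (log2 ratio, Treg over Tconv, of -2.08, -4.07 to -0.53), while the myeloid list was lower in Tconv. Without the cells with markers of other types 4 Treg and 19 Tconv UMIs of it remained, a log2 ratio of -1.73. Of the 19 Tconv cells with Itgam, 17 held a T cell UMI, 5 a myeloid UMI and 5 a CD8 or NK UMI. Itga7, a laminin receptor chain, had 11 and 14 UMIs and a log2 ratio of 0.10. Below the 20-UMI limit, and named after its values were seen, Itga9 had 15 UMIs in Treg and 2 in Tconv.

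The chains differed in how their molecules were spread over cells. The Fano factor, variance over mean of UMIs per thinned cell, is near 1 when molecules fall on cells independently. For Itgb1 it was 5.43 in Treg and 3.38 in Tconv, the third highest of 2639 genes in both libraries. Itgb7 sat at the other end, with 1.04 and 1.14, near independent counts. The median gene had 1.71 in Treg and 1.35 in Tconv, and the 95th percentile was 2.86 and 2.13.

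A few cells therefore carried most of the Itgb1 message. In Treg, 34 of 738 thinned cells (4.61%) had 3 or more Itgb1 UMIs and held 69.9% of all of them, and in Tconv 15 cells (1.35%) held 56.3%. If the same number of Itgb1 UMIs were spread independently, 30.8% of Treg cells and 10.7% of Tconv cells would have had one, where 12.7% and 5.51% did. The highest unthinned count was 26 in a Treg cell and 9 in a Tconv cell. Leaving out that 1 cell of each library left the log2 ratio at 1.68. Since the intervals on levels and ratios take UMIs as independent, they are too narrow for genes spread this unevenly, for Itgb1 above all.

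Itgb2 was uneven to a lesser degree, with Fano factors of 3.02 and 2.36, both above the 95th percentile of genes. Itgal had 2.29 in Treg and 2.06 in Tconv and Itga4 had 2.31 and 1.69, both above the median gene and under the 95th percentile. Itga6 had 1.51 and 1.38, near the median gene. In contrast to Itgb1, Itgb7 had no Treg cell with 3 or more thinned UMIs and 3 such cells in Tconv.

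**Figure D3:**
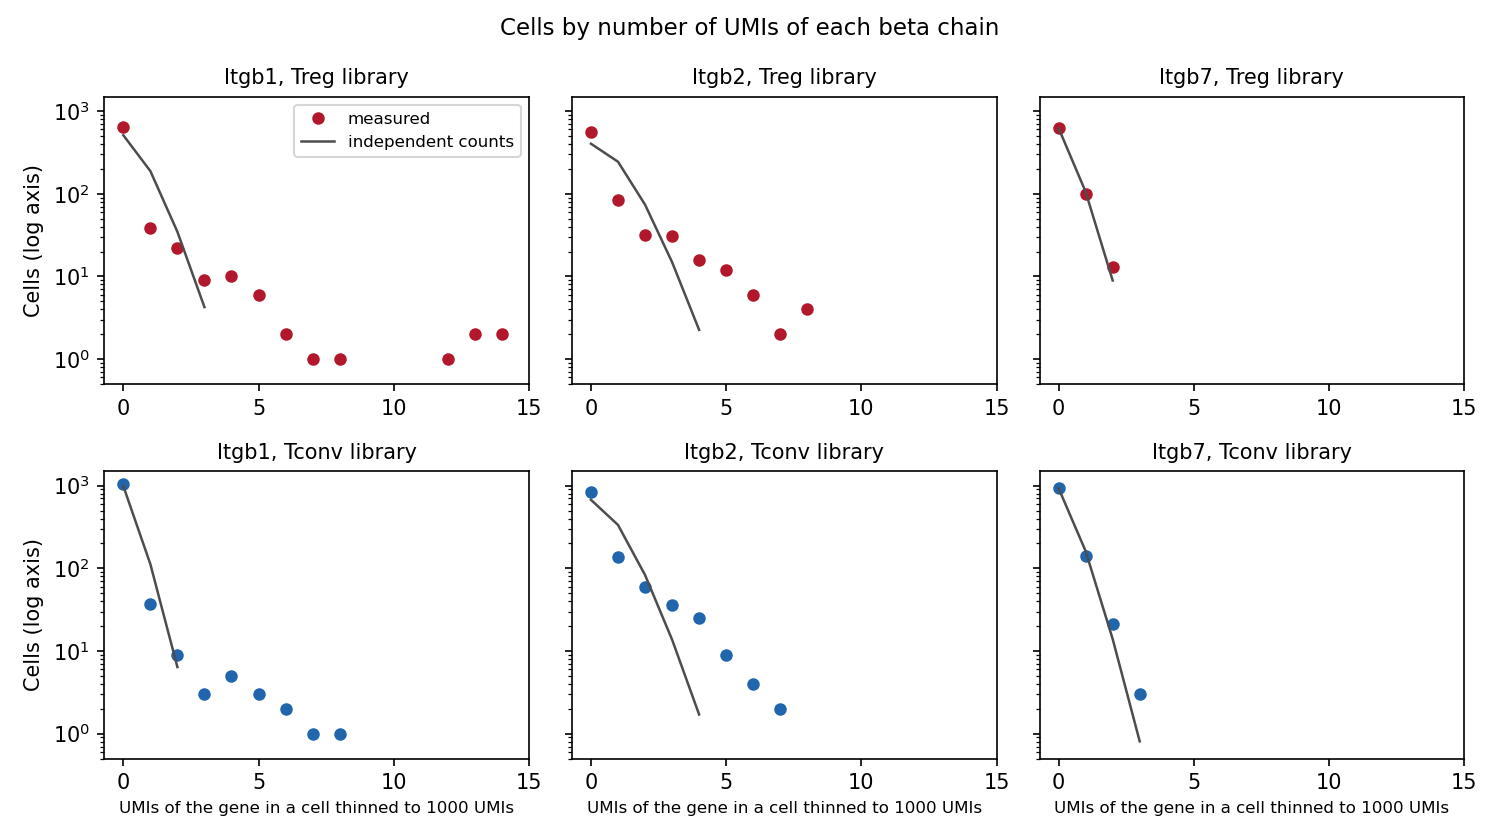
Number of cells (log axis) by UMIs of Itgb1, Itgb2 and Itgb7 per cell thinned to 1000 UMIs, in the Treg (red) and Tconv (blue) libraries; lines give independent counts of the same mean. Itgb1 and Itgb2 reach far to the right of the line, up to 14 UMIs for Itgb1 in Treg, while Itgb7 follows it.

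The number of cells with both chains of one receptor had an interval that held the number expected from independent detection, for each of 7 partner pairs in both libraries. For LFA-1, Itgal and Itgb2 were found together in 29 thinned Treg cells where 30.9 were expected (observed over expected 0.938, interval 0.628 to 1.35). In Tconv they met in 47 cells where 41.2 were expected (1.14, 0.838 to 1.52). These intervals leave out a doubling of the joint cells. A value near 1 does not show that the 2 chains are unrelated. Chains that are present in most cells, but captured in few of them, would also give a value near 1.

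The Itga4 pairs gave wider intervals. Itga4 with Itgb1 was seen in 20 Treg cells against 12.7 expected (1.57, 0.959 to 2.43) and in 11 Tconv cells against 7.32 (1.502, 0.750 to 2.69). Among the 100 Treg cells with an Itga4 UMI, 20 also had an Itgb1 UMI, and among those without it 11.6% did. The Tconv value lies above the middle 90% of all gene pairs, which ends at 1.46, and the Treg value just under its upper end. In Treg the value varied with the cells used: it was 1.79 (0.923 to 3.12) at 500 UMIs, 1.27 (0.725 to 2.06) in a second draw, 0.702 (0.282 to 1.45) at 1500 UMIs and 1.69 (1.03 to 2.61) without the cells with markers of other types. In Tconv it was 0.835 (0.271 to 1.95) at 1500 UMIs, and 2.26 (1.08 to 4.15) in cells with 3 or more UMIs of a 19-gene effector or memory list, where Treg had 1.395 (0.781 to 2.301). Itga4 with Itgb7 was seen in 13 Treg cells against 15.2 expected (0.857) and 23 Tconv cells against 19.8 (1.16).

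The scarce alpha chains met their partners in too few cells to compare. Itga6 met Itgb1 in 4 Treg and 2 Tconv cells, Itgae met Itgb7 in 2 and 1, and Itgav met Itgb1 in 2 and 0 and Itgb3 in 1 and 0. Of 13 alpha and beta combinations not among those 7 pairs, Itga6 with Itgb3 had one in Treg, with 3 cells against 0.618 expected, and none had one in Tconv. Over 2183005 pairs of genes the middle 90% of observed over expected ran from 0.471 to 1.57 in Treg and from 0.576 to 1.46 in Tconv. These are transcripts, and the pairing of proteins at the cell surface was not measured. Most cells showed few chains at once: none of the 9 in 35.5% of Treg and 41.4% of Tconv cells, 1 in 41.3% and 39.6%, and 5 at most.

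**Figure D4:**
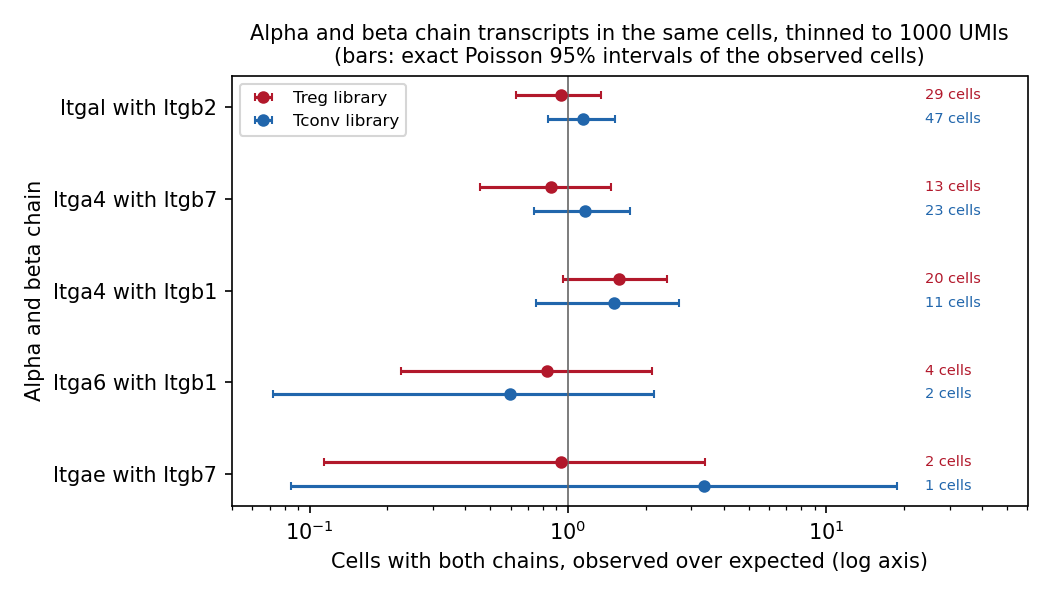
Cells with UMIs of both chains of a receptor, observed over expected from the separate shares (log axis), in Treg (red) and Tconv (blue) cells thinned to 1000 UMIs, with exact Poisson 95% intervals and the number of cells at the right. Every interval crosses 1, and Itgal with Itgb2 has the narrowest.

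Itgb1 was higher in cells with more messages of an effector or memory list of 19 genes, in which S100a10, Crip1, Ly6a and Emp3 had the most UMIs and Itgb1 has no part. Of its 17 measured genes, 5 were 2-fold higher in Treg and none 2-fold lower, beside 8.61% and 3.6% of all genes. The median log2 ratio was 0.75, against 0.14 over all genes measured. The list was chosen with earlier results of these data known, so no result is read from these counts. Thinned cells were sorted into those with 0, 1 to 2, or 3 or more UMIs of that list, which were 13.4%, 32.5% and 54.1% of Treg and 17.1%, 40.3% and 42.5% of Tconv cells. The Itgb1 level was 181.8, 158.3 and 541.4 CPM in the Treg classes and 36.8, 78.3 and 178.3 CPM in the Tconv classes. The highest class exceeded the lowest by 2.98-fold (1.84 to 5.12) in Treg and by 4.84-fold (2.25 to 12.4) in Tconv. Treg cells had more Itgb1 than Tconv cells in each class, with log2 ratios of 2.30 (0.98 to 3.81), 1.02 (0.31 to 1.72) and 1.60 (1.23 to 1.98).

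None of the other 8 chains had an interval above 1 in both libraries. Itgal in Treg was at 90.9 CPM in the lowest class, on 9 UMIs, and 310.8 CPM in the highest, 3.42-fold (1.74 to 7.65). In Tconv it was 215.8 and 278.1 CPM, or 1.29-fold (0.901 to 1.88). Itgb2 in Treg was lower in the highest class than in the lowest, 543.9 against 808.1 CPM (0.673-fold, 0.519 to 0.881), while in Tconv it was 1.16-fold (0.915 to 1.49). Itgb7 gave 1.57-fold (0.849 to 3.17) in Treg and 1.53-fold (1.01 to 2.39) in Tconv. Whether the libraries differ in these folds was not tested. Itga4 gave 1.36-fold (0.842 to 2.32) in Treg and 0.927-fold (0.623 to 1.40) in Tconv. Of the 21 thinned Itgae UMIs in Treg, 18 fell in the highest class, in 11 cells, and that class held 54.1% of the cells. With 1 UMI in the lowest class, the fold was 4.47 with an interval of 0.705 to 186.1, which holds 1.

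**Figure D5:**
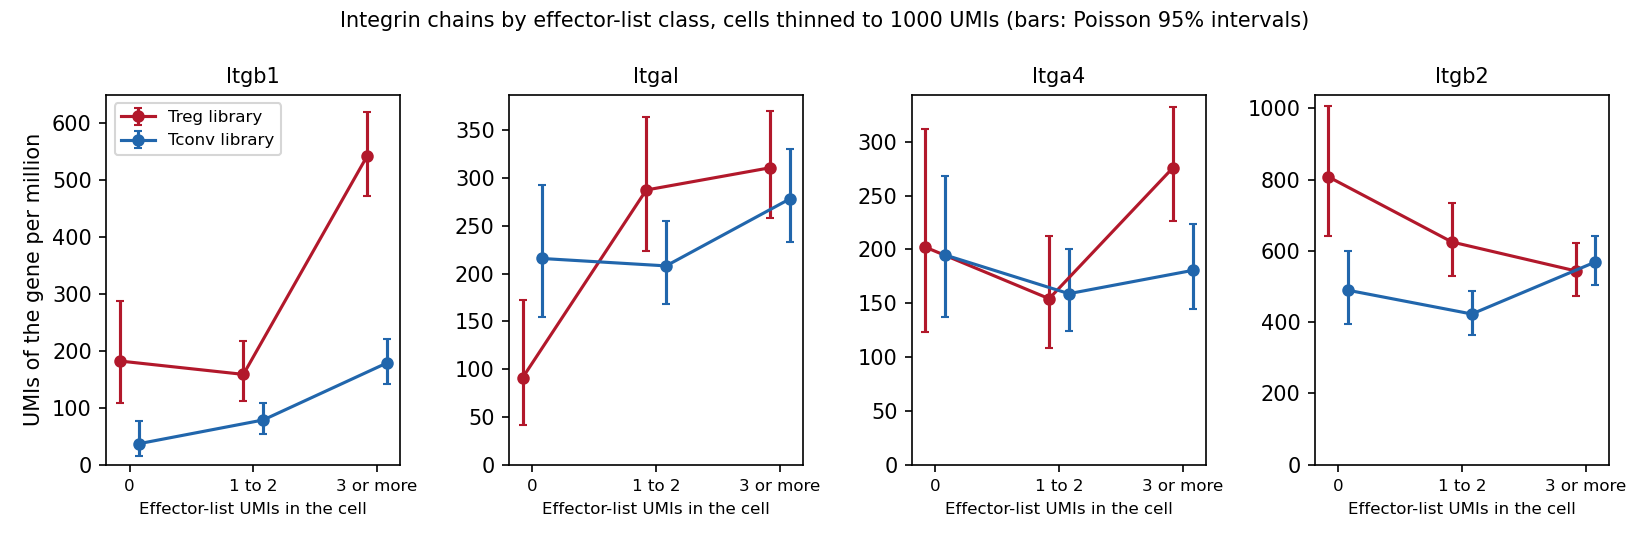
Level of Itgb1, Itgal, Itga4 and Itgb2, in CPM on axes from 0, in cells with 0, 1 to 2 or 3 or more UMIs of the effector or memory list, for Treg (red) and Tconv (blue) cells thinned to 1000 UMIs, with exact Poisson 95% intervals. Itgb1 is highest in the last class of both libraries, at 541.4 and 178.3 CPM, while Itgb2 in Treg is highest in the first, at 808.1 CPM.

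Seen from the other side, cells rich in Itgb1 carried more of the effector list. Cells with 3 or more Itgb1 UMIs had 10441 CPM of the effector list in Treg against 3702 in cells with none, 2.82-fold (2.52 to 3.15), and 5667 against 2501 CPM in Tconv, 2.27-fold (1.803 to 2.81). S100a4, a calcium-binding protein of motile memory cells, and Cd44 are members of that list. S100a4 was 8.36-fold (5.42 to 12.7) higher there in Treg and 83.8-fold (21.3 to 346.9) in Tconv. The Tconv value of S100a4 rests on 6 UMIs in the Itgb1-rich cells and 5 in cells with none. The hyaluronan receptor gene Cd44 was 3.16-fold (1.37 to 6.45) higher in Treg and 5.66-fold (1.12 to 17.9) in Tconv, on 9 and 3 UMIs. A list of 12 resting genes, with Satb1, Igfbp4 and S1pr1 among them, was 0.570-fold (0.434 to 0.735) in Treg and 0.603-fold (0.441 to 0.805) in Tconv. These classes rest on 34 Treg and 15 Tconv cells.

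Within the Treg library no difference in Foxp3 by Itgb1 was seen at this depth. Foxp3 was 1.15-fold (0.637 to 1.94) in the Itgb1-rich cells, and Il2ra, the IL-2 receptor alpha chain, was 0.396-fold (0.144 to 0.873). Klf2, a factor of quiescence and recirculation, was 0.282-fold (0.076 to 0.730). In turn, the 25.5% of thinned Treg cells with a Foxp3 UMI had 0.956 times (0.715 to 1.27) the Itgb1 level of the 550 cells without. Itga6 was 2.38-fold (1.29 to 4.35) higher in cells with a Foxp3 UMI and Itga4 was 0.615-fold (0.397 to 0.923), on 22 and 29 UMIs.

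Cells with more resting-list UMIs had less Itgb1 in both libraries. Of the 12 genes of that list, 4 were 2-fold lower in Treg and none 2-fold higher, beside 3.6% and 8.61% of all genes. Their median log2 ratio was -0.65, against 0.14 over all genes measured. The resting list too was chosen with earlier results of these data known, so no result is read from these counts. The 35 Tconv cells with none of that list had 942.9 CPM of Itgb1, and the 860 cells with 3 or more had 65.1 CPM, a ratio of 0.069 (0.044 to 0.110). In Treg the levels were 557 CPM in 140 cells and 291.2 CPM in 340 cells, 0.523-fold (0.385 to 0.712). The order of the libraries turned in the cells with no resting-list UMI, where the log2 ratio of Itgb1, Treg over Tconv, was -0.76 (-1.36 to -0.13), with Itgb1 seen in 10 of those 35 Tconv cells and 21 of those 140 Treg cells. It was 1.08 (0.52 to 1.67) in cells with 1 to 2 such UMIs and 2.16 (1.67 to 2.66) in cells with 3 or more. Itgal showed 364.3 and 197.1 CPM in Treg, 0.541-fold (0.370 to 0.795), and 371.4 and 201.2 CPM in Tconv, 0.542-fold (0.308 to 1.04).

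Genes that varied most like each chain across cells were sought among those seen in at least 5% of thinned cells of both libraries, by the mean of the Spearman correlations in the Treg and the Tconv cells. The cells of a library share their preparation, and all values were weak. For Itgb1 the 8 highest were AW112010 (0.141), Prr13, S100a10, Vcp, Sec11c, S100a11, Lgals1 and Gm12070. S100a10, S100a11 and Lgals1 belong to the effector list. For Itga4 the highest was Parvg, a parvin of the integrin-linked kinase complex, at 0.093, for Itgb2 Zbtb7a at 0.095, for Itgb7 Lgals1 at 0.097, and for Itgal Izumo1r, folate receptor 4, at 0.089. Itgae was in too few cells to enter. No coexpression is read from values of this size.

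Genes that activate integrins and tie them to actin had ratios on both sides of 0. Of 28 measured genes of 31 listed, none was 2-fold higher in Treg and 2 were 2-fold lower, beside 8.61% and 3.6% of all genes, and the median log2 ratio was 0.03. The interval lay above 0 for 6 of them and below 0 for 5. The same shares were not counted over all genes, so no difference of the family is read from these counts. Actn1, an actin crosslinker that binds integrin tails, stood at 229.5 CPM in Treg and 519.3 CPM in Tconv, a log2 ratio of -1.18 (-1.36 to -0.999). Rasgrp2, the exchange factor that activates Rap1, stood at 56.5 and 142.8 CPM, a log2 ratio of -1.34 (-1.71 to -0.98). Without the cells with markers of other types these were -1.17 and -1.42. Cytip was at -0.31 (-0.43 to -0.19), Stk4 at -0.54 (-0.72 to -0.36) and the filamin Flna at -0.11 (-0.25 to 0.04). Talin (Tln1), which switches integrins on from inside the cell, was at 0.02 (-0.16 to 0.20). The highest of the measured genes were Zyx (zyxin), found at focal adhesions, at 0.97 (0.64 to 1.31) and Sharpin, an inhibitor of integrin activation, at 0.76 (0.33 to 1.19).

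Of 14 measured genes among 18 ligands and other adhesion molecules, 2 were 2-fold higher in Treg, none was 2-fold lower, against the same shares of all genes, and the median was 0.41. The 2 were the tetraspanin Cd81, at 116.5 CPM in Treg and 26.96 in Tconv, and the LFA-1 ligand Icam1, with 35 UMIs in Treg and 12 in Tconv. Their log2 ratios were 2.11 and 1.99, and 2.10 and 2.02 without the cells with markers of other types. Cd2 was at 0.91 (0.75 to 1.07), Selplg at 0.58 (0.44 to 0.72) and Spn at -0.15 (-0.33 to 0.03). Vcam1, the VLA-4 ligand, had 19 UMIs in Treg, all in 1 cell that held markers of another type, and 0 in Tconv. Among 3 measured genes of TGF-beta activation, a process in which Itgav integrins take part, Lrrc32 (GARP) had 130 Treg UMIs and 0 in Tconv. Nrros was at 0.13 (-0.27 to 0.53) and Tgfb1 at 0.45 (-0.39 to 1.29).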

How the data were processed

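The deposited table gives counts of UMIs per gene and cell, made by the authors with TopHat2 and SAMtools on mm10, per the submitters' processing notes; no source used here gives the annotation or strand use. Cells were summed per library and compared by CPM (scipy 1.17.1, Python 3.11.15), with a 95% interval and a minimum of 20 UMIs, and a 2-fold difference counted as a call. Capture differs by gene. Where genes are set side by side, as in shares of the integrin UMIs, the values describe captured UMIs and not transcript abundance. Reads per UMI were 31.3 in Treg and 18.7 in Tconv. Shares, Fano factors, pairs and classes used cells thinned once to 1000 UMIs. The expected number of cells with both chains is the product of the separate shares and the number of cells. Scripts were tested on simulated data. scanpy 1.11.5 (Scrublet) marked 1 Treg and 12 Tconv cells as doublets, which were kept. edgeR 4.0.16 gave TMM factors only.

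Named genes were the 9 chains and other integrin chains with 20 UMIs. Up to 4 members of each list by UMIs and the 8 most similar genes of a chain were also named. Tln1, Zyx, Sharpin, S100a4, C1qa, C1qb, C1qc, Cd5l and Adgre1 were named after their values were seen. So were Icam1, Cd81, Rasgrp2, Vcam1, Cd44, Il2ra and Klf2. A list gene that this rule would name is not reported here. Members and lists were chosen with earlier results of these data known. Of the 9 chains, 4 had a promoter in the RefSeq table.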

Additional observations from a re-analysis of the deposited data

How the results depend on the processing

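All but 21 of the values recomputed under other settings stayed within the interval, or 1.5 times, of the reported one, and none of the called ratios changed sign. Itgb2 had a log2 ratio of 0.11 with totals that leave out ribosomal protein genes, and also under TMM scaling; these lower every log2 ratio by 0.13 and 0.14, respectively, and of the 9 chains they turned only Itga6 from above 0 to below. Itgb7 had -0.033 in thinned cells. With a minimum of 50 UMIs only 1 chain, Itgb1, counted as 2-fold higher in Treg, because Itgae falls out. The Treg to Tconv ratio of the share of cells with Itgb7 was 1.33 at 500 UMIs and 1.34 at 1500. Itga4 with Itgb1 gave 0.702 in Treg at 1500 UMIs. Within effector classes, where few cells remain, it gave 2.54 (0 UMIs) and 0.672 (1 to 2) in Treg and 0 and 0.476 in Tconv; in the class of 3 or more it gave 1.395 and 2.26 (1.08 to 4.15). Itga4 with Itgb7 gave 0.369 in Treg and 0.648 in Tconv in the middle class, and Itgal with Itgb2 gave 2.28 in Treg cells of the lowest. The Itgb1 Fano factor in Treg was 3.38 at 500 UMIs, where fewer UMIs lower it by construction. One setting was chosen after seeing the data, the 5 ratios of other genes without cells of other types. The Itgae share had no Tconv cell to compare with at 500 or 1500 UMIs. The Itgb1 log2 ratio ran from 1.54 to 1.77. No paired analysis was possible because each group is a single library and the numbers in the titles name cells.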
